A study of Mus musculus with 26 samples.

Results

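The regions described here are the stretches of chromatin that ATAC-seq, which marks DNA open to a transposase, called as peaks in a 4 Mb window of mouse chromosome 6 around the immunoglobulin kappa (Igk) locus. They were found by taking every peak of 8 peak lists that lay between chr6:67000001 and chr6:71000000 of the mm9 build, and merging peaks that shared at least 1 bp. This gave 262 merged regions, built from 1030 peaks, out of 80350 merged regions and 337357 peaks over the whole genome. The choice used position only, so presence, width and score in each library were open to measurement.

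The series holds 26 mouse samples, 8 for ATAC-seq and 18 for RNA-seq, and its title names CXCR4 signalling and Igk recombination. The ATAC-seq samples form 4 groups of 2 libraries: flow-sorted CXCR4-/- small pre-B cells, cultured pre-B cells with interleukin 7 (IL7+), cultured pre-B cells without it (IL7-), and cultured pre-B cells without it but with the chemokine CXCL12 (IL7- CXCL12+). Matching RNA groups of 2 libraries exist for all 4, and sorted wild-type small pre-B cells were measured for RNA only. So were CXCR4-/- cells without IL-7, with and without CXCL12, and pre-B cells with both IL-7 and CXCL12. A last RNA group was pre-B cells without IL-7 given CXCL12 and an ERK inhibitor. The labels give no genotype for the cultured cells that have peak lists, and no age or strain. They do not state that the libraries of a group came from separate animals or cultures. A p-value here therefore measures the spread between libraries, which may be technical. No sorted wild-type peak list was analysed here, so the effect of the CXCR4 loss and the difference between sorted and cultured cells cannot be told apart in the peak data.

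The Igk locus encodes the kappa light chain of antibodies. A developing B cell joins one of many variable (V) segments, spread over a long stretch of chromosome, to one of a few joining (J) segments that lie next to the constant (C) end, and it does so at the small pre-B stage, after IL-7 signalling falls and the cells stop dividing. Enhancers known at the J-C end act in this step, and recombination by the RAG proteins needs open chromatin at the segments it joins.

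The window was read as 4 stretches: a low flank of 0.50 Mb (chr6:67000001-67500000, 25 regions), a V side of 3.15 Mb (chr6:67500001-70650000, 203 regions), a J-C end of 0.06 Mb (chr6:70650001-70710000, 11 regions) and a high flank of 0.29 Mb (chr6:70710001-71000000, 23 regions). These borders are round positions chosen from general knowledge of the locus, not from an mm9 annotation. Whether a region lies in a segment, an exon, an intron or an enhancer was therefore not determined. In the RefSeq gene order for GRCm38.p6, used for order alone, the low side holds Gadd45a and Serbp1, then come the V segments from Igkv2-137 to Igkv3-1, then IgkJ1 to IgkJ5, and then Rpia and Eif2ak3. The J-C end was the densest stretch, with 18.3 regions per 100 kb against 6.44 on the V side, 7.93 in the high flank and 5.00 in the low flank.

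The 8 lists differed in length, which bears on every count of regions present. The sorted lists held 66503 and 57721 peaks, and the 6 cultured lists held from 30832 to 42205. Chromosome 10 took 7.28% and 7.67% of the sorted lists but 13.6% to 16.0% of the cultured lists, and chromosome Y had 7 and 9 peaks in the sorted lists against 110 to 122 in the cultured lists. Results are therefore also given with lists of equal length, and the shares per list also without chromosome 10 in the denominator, where the adjusted exact permutation p was 0.210 for each of the 4 quantities tested. Both chromosome differences follow the split between sorted and cultured libraries and cannot be told apart from it. The part of chromosome Y was not tested. Within the IL7- CXCL12+ group, replicate 1 stood apart from replicate 2, with 123 window peaks against 77, although the lists were of similar length (35800 and 30832).

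**Figure D1:**
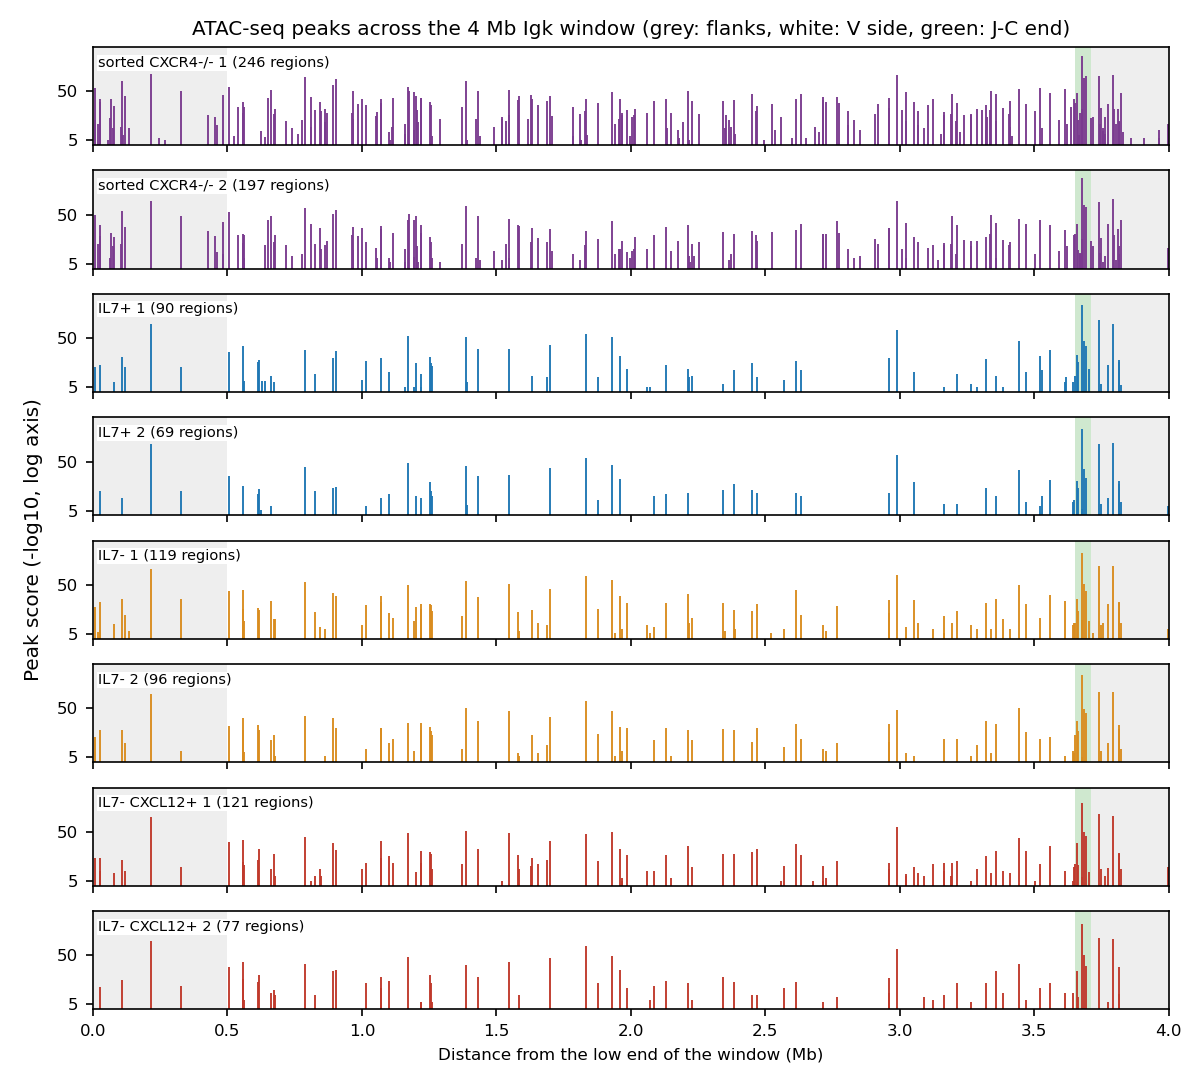
Peaks along the window in the 8 ATAC-seq libraries, 1 row per library. The x axis is the distance from the low end of the window in Mb, each line is 1 merged region, and its height is the highest peak score in that library on a log axis. The sorted rows hold 246 and 197 regions and the cultured rows 69 to 121, and the highest line in every row stands at the J-C end.

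The peak score in these lists is the authors' -log10 of a p or q value, no lower than 5 in any list. It was used to rank peaks within a list, and it is not compared between lists. The highest peak of the window in all 8 libraries was the region at chr6:70676363-70677087 in the J-C end. Its score was 261 and 283 in the sorted libraries, 240 and 231 in IL7+, 225 and 237 in IL7-, and 197 and 222 in IL7- CXCL12+. It ranked second to sixth among all peaks of the genome in every list: position 4 of 66503 and 4 of 57721 in the sorted lists, 2 in both IL7+ lists and both IL7- lists, and 6 and 2 in the IL7- CXCL12+ lists. Its width varied little, with 686 to 719 bp covered per library. The locus thus held one of the strongest accessible sites of the genome whether or not IL-7 was present.

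The other regions of the J-C end fell into those seen in all libraries and those seen in some. Besides the strongest region, 4 of the 11 were listed in all 8 libraries, so 5 of 11 (45.5%) were common to all, against 19.2% on the V side, 20.2% in the window and 25.4% in the genome. Next in score came the region at chr6:70685264-70686076, which began 8176 bp past the strongest region. Its score was 93.7 and 77.5 in the sorted libraries, 44.4 and 35.9 in IL7+, 51.4 and 48.5 in IL7-, and 49.3 and 50.8 in IL7- CXCL12+. A further gap of 7667 bp led to the region at chr6:70693744-70694500, with scores of 104 and 71.4 in the sorted libraries, 34.4 and 23.4 in IL7+, 37.0 and 41.1 in IL7-, and 41.1 and 29.8 in IL7- CXCL12+. Within the lists these 2 regions took the second and the third place of the 5 common J-C regions, with the 70685264 region ahead in 7 of 8 libraries and behind in sorted replicate 1.

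The remaining pair of common regions lay on the V-proximal part of the J-C end. The region at chr6:70659139-70660091 was the widest of the 11 (953 bp merged), with scores of 46.9 and 32.7 in the sorted libraries and 20.5 to 29.0 in the 6 cultured ones. Beside it, chr6:70664196-70664670 scored 13.1 and 9.38 in the sorted libraries and 6.95 to 17.1 in the cultured ones. The order strongest region, 70685264 or 70693744, 70659139, 70664196 was the same in all 8 lists.

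The 6 other J-C regions were each listed in some libraries only. Next to the strongest region, 359 bp before it, chr6:70675643-70676003 was listed in 6 libraries, at 21.9 and 16.0 in the sorted libraries, 5.30 in IL7+ replicate 2, 9.57 and 5.23 in IL7-, and 6.01 in IL7- CXCL12+ replicate 1. Apart from IL7- replicate 1, the cultured libraries that had it listed it near the lower limit of 5. Nearest to the V side, chr6:70653223-70653701 was also listed in 6 libraries, at 28.3 and 20.2 in the sorted ones, 8.65 in IL7+ replicate 1, 8.52 and 14.5 in IL7-, and 11.01 in IL7- CXCL12+ replicate 1. In the sorted libraries both of these scored above the common region at 70664196. Between these, chr6:70668716-70669169 was listed in both sorted libraries (18.1 and 8.29) and in no culture, and the regions at chr6:70666891-70667386 and chr6:70670404-70670686 were each listed in 1 sorted library. In contrast, the region at chr6:70703771-70704309 was listed in no sorted library and only in replicate 1 of each culture, at 11.9, 9.24 and 7.61.

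**Figure D2:**
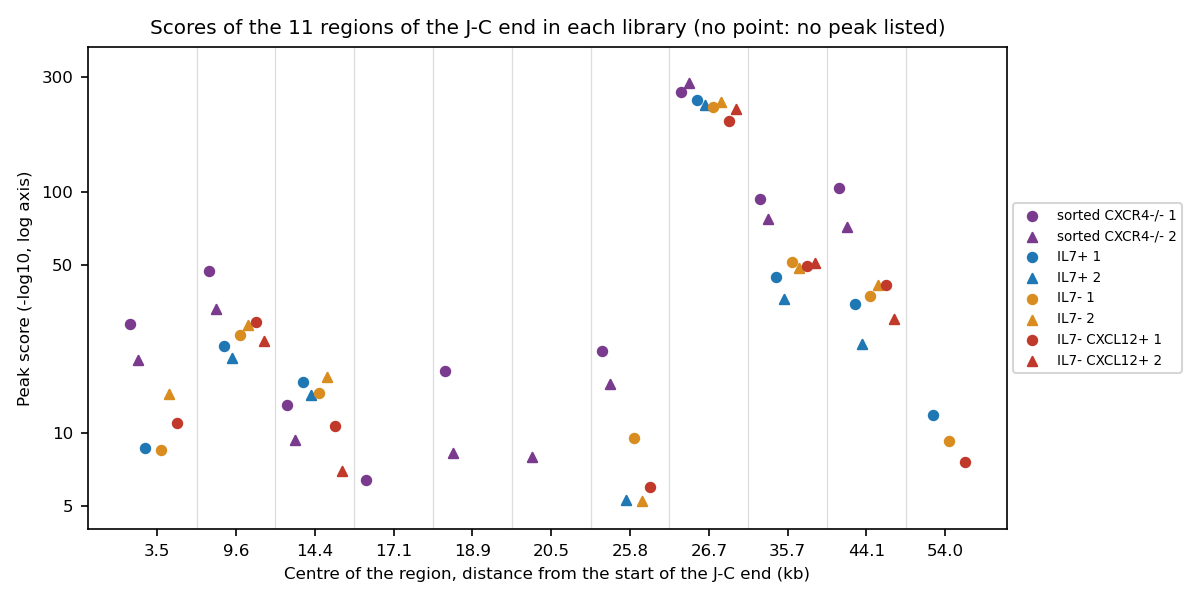
Score of each of the 11 J-C end regions in each library. Regions stand in order at even spacing on the x axis, each labelled with its centre's distance in kb from the start of the J-C end, the y axis the peak score on a log axis, circles are replicate 1 and triangles replicate 2, and a missing point means that no peak was listed. The region at 26.7 kb lies between 197 and 283 in all 8 libraries, and scores are ranked within a library, not compared between lists.

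Per library, the window took a larger share of the sorted lists than of the IL7+ lists. Window peaks per 10000 peaks of the list were 37.1 and 35.2 in the sorted libraries, 24.4 and 22.1 in IL7+, 28.7 and 27.8 in IL7-, and 34.4 and 25.0 in IL7- CXCL12+. The IL7+ pair lay below all other libraries and the sorted pair above all others, with the IL7- CXCL12+ pair spread over most of the range between them. The group means were 36.2 ± 1.39 (SD, n = 2) in sorted cells, 23.2 ± 1.60 in IL7+, 28.2 ± 0.641 in IL7- and 29.7 ± 6.64 in IL7- CXCL12+. An exact permutation test of the spread between the 4 groups, which carries no direction, gave p = 0.133. After Benjamini-Hochberg adjustment over the 4 quantities tested in this way it was 0.152, so the difference did not pass 0.05. The smallest p this test can give with 8 libraries in 4 pairs is 0.00952.

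On the V side the same order held. V-side peaks per 10000 were 28.6 and 27.5 in the sorted libraries, 18.7 and 16.1 in IL7+, 22.0 and 22.1 in IL7-, and 27.4 and 20.4 in IL7- CXCL12+. The exact permutation test gave p = 0.0667 (adjusted p = 0.133). Bases covered in the window, per Mb that the list covered in all, were 3007 and 2614 in sorted cells, 1835 and 1751 in IL7+, 2224 and 2116 in IL7-, and 2640 and 1886 in IL7- CXCL12+ (exact permutation p = 0.152, adjusted p = 0.152). These 3 quantities passed the test without IL7- CXCL12+ replicate 1 (adjusted exact permutation p = 0.0254) and without replicate 2 (0.0286), but with 1 library left in that group, only the other 3 groups give a spread within groups, and the pair reduced was the one with the widest spread. Kept to the higher-scoring peaks of each list, cut at its median score, they passed as well (0.0381), but not with lists of equal length (0.286).

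As a share of what each list covered, the J-C end ran the other way. Its covered bases per Mb covered were 125 and 134 in the sorted libraries, 164 and 165 in IL7+, 163 and 178 in IL7-, and 200 and 171 in IL7- CXCL12+. In this share both sorted libraries lay below all 6 cultured ones, and the cultured groups overlapped. In bases not divided by the list, the sorted libraries were highest, with 4907 and 4557 bp against 3117 to 4423 bp in the cultures. They also listed the most J-C peaks, 9 in each library against 5 to 8 in the cultures. The lower share was thus not a lower number of bases covered in the J-C end. The mean share of sorted libraries minus that of the cultured groups was -43.9. With lists of equal length it was -27.1, and with the higher-scoring peaks -56.6. The part of list length in the lower share was not tested. The exact permutation test over the 4 groups gave p = 0.0571 (adjusted p = 0.133), and 0.0286 after adjustment without IL7- CXCL12+ replicate 2, where the same limit holds. With lists of equal length the adjusted exact permutation p was 0.286, and with the borders of the J-C end set further out it was 0.905. With the 3 cultured groups alone, the adjusted exact permutation p was 0.467 for each of the 4 quantities, where the smallest p possible is 0.0667.

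**Figure D3:**
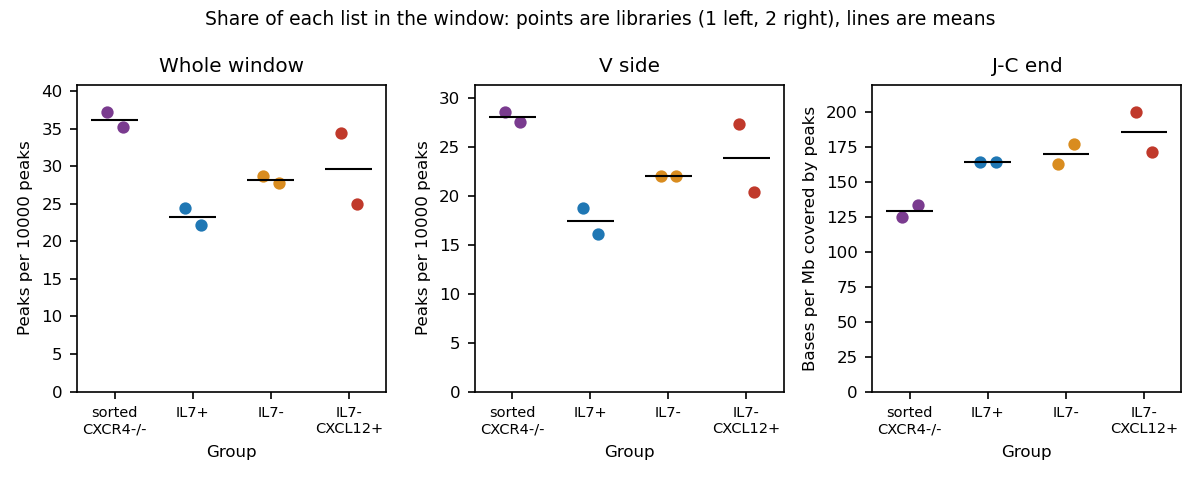
Share of each list that fell in the window, on the V side and in the J-C end, by group. The left and middle y axes give peaks per 10000 peaks of the list and the right one bases per Mb covered; points are libraries and black lines are means of 2. For the window and the V side the sorted points are highest and the IL7+ points lowest, and for the J-C end the sorted points (125 and 134) lie below the cultured points (163 to 200).

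Of the 262 regions, 53 (20.2%) were listed in all 8 libraries, 122 (46.6%) in 1 or both sorted libraries and no culture, and 11 (4.20%) in cultures only. Over the genome these shares were 25.4%, 37.7% and 14.8%, and over the 3915 regions of chromosome 6 outside the window they were 25.8%, 43.7% and 5.64%. The window thus held a smaller share of culture-only regions than the genome, and one close to that of the rest of its chromosome. Regions listed in all 8 libraries were wider and higher in score: their median merged width was 630 bp and the median of their highest score 43.4. For the 72 regions of both sorted libraries alone these values were 408.5 bp and 15.4, and for the 50 found in a single sorted library 322.5 bp and 7.39. Merging over more libraries widens a region, so the widths of these classes are not independent of how many libraries hold them.

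Replicates overlapped unevenly. In the sorted pair 192 regions were shared, which is 78.0% of those of replicate 1 and 97.5% of those of replicate 2. The shared numbers were 64 in IL7+ (71.1% and 92.8%), 95 in IL7- (79.8% and 99.0%) and 76 in IL7- CXCL12+ (62.8% and 98.7%). Replicate 2 of each group was therefore nearly contained in replicate 1, the longer list of each pair. Of the 55 regions listed in 1 library only, 34 (61.8%) never scored 8 or more, against 8 of the 207 others (3.86%). A region listed in more libraries has more scores that can reach 8.

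Along the window, regions of sorted cells alone were found in every part. In bins of 0.5 Mb, counted from the low end, their share of the regions was 60.0% in the first bin and 40.0% to 53.3% in the other 7. On the V side, the median distance between the centres of neighbouring regions held by both libraries was 16.6 kb in sorted cells, 51.6 kb in IL7+, 32.1 kb in IL7- and 43.5 kb in IL7- CXCL12+. These sets held 150, 48, 75 and 62 regions, and over one fixed stretch fewer regions stand further apart. The distances are therefore no separate result on layout, and they were not measured with lists of equal length. The longest stretch of the V side without a region in any library ran from chr6:69255021 to chr6:69343808, over 88.8 kb.

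The strongest V-side regions differed in how they ranked in sorted and cultured lists. The region at chr6:69990523-69991431 scored 106 and 96.6 in the sorted libraries, 73.0 and 66.9 in IL7+, 81.0 and 46.7 in IL7-, and 63.7 and 66.0 in IL7- CXCL12+, which placed it in the top 2.41% and 2.38% of the sorted lists and the top 7.01% to 21.0% of the cultured lists. In contrast, chr6:68834077-68834745 had the reverse ranking, in the top 27.8% and 37.5% of the sorted lists and the top 7.74% to 20.2% of the cultured ones. Its scores were 35.3 and 23.5 in sorted cells, 61.0 and 60.0 in IL7+, 75.7 and 70.3 in IL7-, and 45.2 and 77.2 in IL7- CXCL12+. Of the 12 highest-ranked common regions, 7 lay on the V side; the other five of these 7, at chr6:68387041-68388032, 68927883-68928550, 68169597-68170205, 70443749-70444431 and 68547879-68548585, scored between 25.5 and 79.8 over the 8 libraries.

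The flanks held 3 strong regions present in all libraries: chr6:67216263-67217728 (94.6 to 112) in the low flank, and chr6:70740967-70742555 (90.0 to 120) and chr6:70793908-70795025 (98.9 to 124) in the high flank. With merged widths of 1466, 1589 and 1118 bp they were among the 6 widest regions of the window. The others of these 6 were less general. The region at chr6:70821189-70822562 was listed in 7 libraries, at 46.1 and 38.3 in sorted cells and 5.62 to 8.62 in cultures. A weaker one, chr6:70755327-70756477, was listed in both sorted libraries and IL7- replicate 1, never above 8.52, and the sixth, at chr6:69764298-69765452, is described with the IL-7 comparison.

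The comparison of IL7- with IL7+ asks which regions were listed when the cytokine was withdrawn. Of 127 window regions held by any of the 4 libraries, 17 (13.4%) were listed in both IL7- libraries and neither IL7+ library, against 4.19% of the regions so compared over the genome and 5.38% over the rest of chromosome 6. In the reverse direction 2 (1.57%) were listed in both IL7+ libraries alone, against 1.19% over the genome. All 17 lay on the V side, from chr6:67557351 to chr6:70340248, spread as 3, 3, 5, 0, 4 and 2 over the 6 bins from 0.5 to 3.5 Mb. None lay in the J-C end or the flanks. The V side held 75 of all 95 window regions listed in both IL7- libraries, so most of such a set would lie there. Presence in a list with 2 libraries per group carries no test, so the difference from the genome is a description.

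All 17 of these regions were also listed in both sorted libraries, where 77.3% of the 2013 such regions of the genome were. In IL7- CXCL12+ cells 15 were listed in replicate 1, 7 in replicate 2 and 7 (41.2%) in both. Of the 2013 genome regions, 1141 were listed in replicate 1, 598 in replicate 2 and 438 (21.8%) in both. They were weak where they appeared in culture: the median score was 8.52 and 6.74 in the IL7- libraries, above only 28.1% and 14.9% of the peaks of those lists. In the sorted libraries their median was 30.4 and 20.2, above 67.6% and 57.2% of the list. For the 39 V-side regions common to all 8 libraries, the median score in IL7- was 25.7 and 20.7.

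Among the 17, the widest was the region at chr6:69764298-69765452 (1155 bp), which scored 38.9 and 37.9 in sorted cells, 18.2 and 9.65 in IL7-, and 12.7 and 6.94 in IL7- CXCL12+. Highest in the IL7- lists was chr6:68071580-68072135, at 22.6 and 19.8, with 28.3 and 25.4 in sorted cells and 14.6 and 10.8 in IL7- CXCL12+. The region at chr6:67557351-67558278, nearest to the low end, scored 18.0 and 13.4 in sorted cells, 16.3 and 17.9 in IL7-, and 11.9 and 16.6 in IL7- CXCL12+. At the other end, the region at chr6:70339626-70340248 was strong in sorted cells (49.8 and 48.3) and close to the lower limit in IL7- (6.43 and 6.06). In sorted cells all 17 scored at least 7.96.

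The count of 17 moved with the libraries and the lists. When IL7+ replicate 1 was left out, so that a single library stood for the group, it was 32, and without IL7- replicate 2 it was 31. Leaving out a library loosens the rule of both libraries against neither. Counts with a library left out could therefore hardly fall, and their rise is not a result. With every list shortened to the 30832 highest-scoring peaks the count of 17 became 9 of 104 regions (8.65%), against 2.68% over the genome. The 2 regions listed in IL7+ alone were chr6:68388865-68389267 and chr6:70528074-70528447. That count was 6 without IL7+ replicate 2 and 4 without IL7- replicate 1. With lists of equal length it was 1 of 104 (0.962%, genome 2.49%), and with the higher-scoring peaks 0 of 63 (genome 0.762%).

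**Figure D4:**
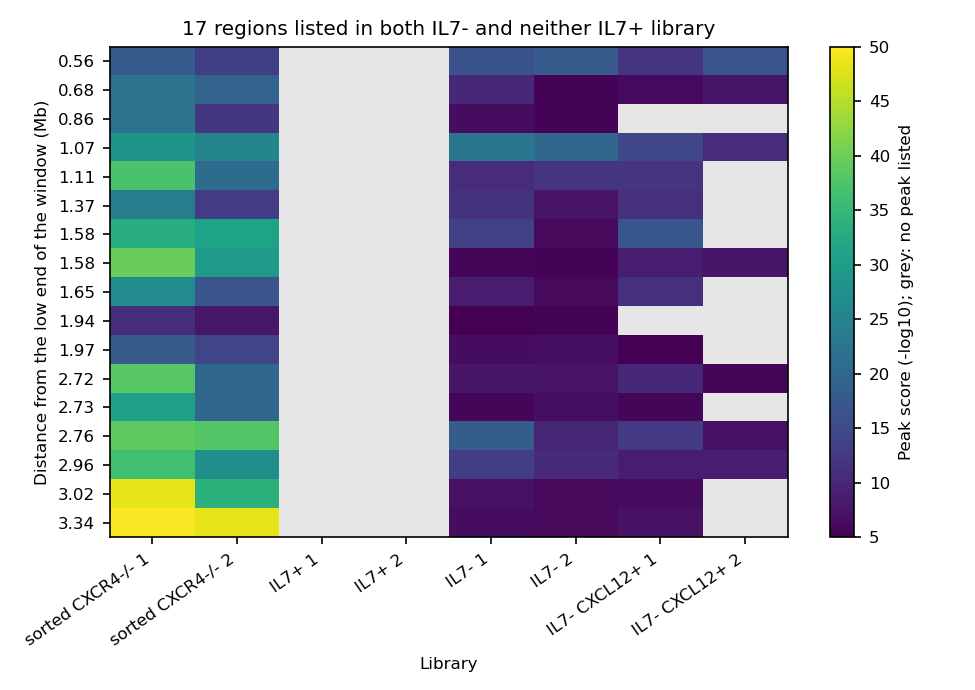
The 17 regions listed in both IL7- libraries and neither IL7+ library, in evenly spaced rows labelled with their distance from the low end of the window in Mb (y axis), with the libraries on the x axis. Colour is the peak score up to 50 and grey means no peak listed. All 17 are coloured in both sorted columns, 15 in IL7- CXCL12+ replicate 1 and 7 in replicate 2, and the IL7+ columns are grey because that is how the rows were chosen.

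With CXCL12 added in the absence of IL-7, few window regions separated the groups by this count. Of 133 regions held by IL7- or IL7- CXCL12+ libraries, 1 (0.752%) was listed in both IL7- CXCL12+ libraries and neither IL7- library, against 0.529% over the genome. That region, chr6:70089006-70089382, scored 6.40 and 6.94, and was also listed in sorted replicate 1. In the other direction 3 (2.26%) were listed in both IL7- libraries alone, against 3.82% over the genome. The 1 became 13 without IL7- CXCL12+ replicate 2 and 4 without IL7- replicate 1. With lists of equal length it was 3 of 117 (2.56%, genome 1.62%), and with the higher-scoring peaks 0 of 66 (genome 0.132%). The 3 became 23 without IL7- CXCL12+ replicate 1 and 11 without IL7- replicate 2. With lists of equal length it was 1 of 117 (0.855%, genome 1.87%), and with the higher-scoring peaks 6 of 66 (9.09%, genome 3.25%). Whether this share lay below or above that of the genome thus changed with the cut of the lists.

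Against IL7+, 9 of 131 window regions (6.87%) were listed in both IL7- CXCL12+ libraries and neither IL7+ library, against 1.82% over the genome, and 2 (1.53%) in the reverse direction, against 3.42%. All 9 lay on the V side, which held 62 of all 76 window regions listed in both IL7- CXCL12+ libraries. This comparison shares its IL7+ libraries with the one above, and 7 of the 9 were listed in both IL7- libraries. Those 7 were present in both pairs without IL-7 and in neither IL7+ library, which is 2.67% of window regions, against 0.545% of genome regions. The count of 9 was 36 without IL7- CXCL12+ replicate 2, 18 without IL7+ replicate 1 and 13 of 117 with lists of equal length (11.1%, against 2.58% over the genome). With the higher-scoring peaks of each list it was 2 of 54 (3.70%, against 1.26% over the genome). The count of 2 was 8 without IL7+ replicate 2 and 7 without IL7- CXCL12+ replicate 1. With lists of equal length it was 1 of 117 (0.855%, genome 3.39%), and with the higher-scoring peaks 0 of 54 (genome 3.06%).

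Sorted CXCR4-/- cells held many regions that cultures lacked. Of 259 window regions held by sorted or IL7+ libraries, 108 (41.7%) were listed in both sorted and neither IL7+ library, against 31% over the genome, and 3 (1.16%) in the reverse direction, against 6%. Against IL7- the counts were 82 (31.7%, genome 25.3%) and 4 (1.54%, genome 5.89%). Against IL7- CXCL12+ they were 81 (31.4%, genome 31.2%) and 4 (1.55%, genome 5.36%). Over the rest of chromosome 6 the shares held by sorted cells alone were 34.7%, 28.4% and 35.3%, and those in reverse 1.77%, 1.48% and 0.873%. Set against its own chromosome, the window thus had a higher share of sorted-only regions in the comparisons with IL7+ and IL7- and a lower one in that with IL7- CXCL12+. Its low shares in reverse, next to the genome, were not low next to the rest of chromosome 6 for IL7- and IL7- CXCL12+. These 3 comparisons share the sorted libraries. With lists of equal length the counts for sorted cells were 37 against IL7+ (26.1%, genome 15.8%), 23 against IL7- (16.4%, genome 13.0%) and 19 against IL7- CXCL12+ (13.0%, genome 13.5%). In reverse they were 8 (5.63%, genome 15.01%), 10 (7.14%, genome 12.8%) and 12 (8.22%, genome 13.3%). With the higher-scoring peaks the counts for sorted cells were 58 of 135 against IL7+ (43.0%, genome 33.0%) and 42 of 136 against IL7- (30.9%, genome 27.2%). Against IL7- CXCL12+ the count was 53 of 135 (39.3%, genome 33.2%). In reverse they were 2 (1.48%, genome 4.85%), 5 (3.68%, genome 4.79%) and 2 (1.48%, genome 4.12%). Leaving out sorted replicate 2 gave 134 against IL7- and 131 against IL7- CXCL12+. Leaving out IL7+ replicate 2 raised the 3 to 8, leaving out sorted replicate 1 raised it to 5, and leaving out IL7- replicate 2 raised the first 4 to 8.

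Among the regions of both sorted libraries alone, the widest were chr6:67484810-67485665 (856 bp, scores 42.8 and 36.2) and chr6:67482592-67483446 (855 bp, 8.12 and 7.96) at the upper edge of the low flank. Others of this class were chr6:70805510-70806181 (10.9 and 6.06) and chr6:70712479-70713125 (14.6 and 14.4) in the high flank, chr6:68830585-68831204 (19.6 and 12.2) on the V side, and chr6:67065377-67065908 (34.3 and 21.3) and chr6:67063764-67064279 (14.1 and 6.63) in the low flank. The V-side member at chr6:68830585-68831204 lies a few kb from the 68834077 region, which ranked higher in cultures than in sorted cells.

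Only 3 regions were listed in all 6 cultured libraries and neither sorted library, 1.15% of the window against 3.80% of the genome and 0.792% of the rest of chromosome 6. Of these, chr6:67614366-67614848 scored 11.02 to 23.2 and chr6:67618247-67618606 scored 13.6 to 21.8, and they lay within one stretch near the low edge of the V side. The last, chr6:70645323-70645678, scored 5.02 to 8.43 and lay next to the J-C end.

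RNA from the same locus was compared among the 3 cultures that also had peak lists, with all 18 RNA libraries in one edgeR quasi-likelihood fit. RNA depth was 17257914 to 50235192 counts per library. V segments are near-identical to one another in part, so how reads were shared among them is uncertain, and their sum is steadier than any single one. Levels are given as CPM, counts scaled by library size and TMM factors.

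Summed over 162 V segments, RNA was 50.9 and 48.4 CPM in IL7+, 86.7 and 87.0 in IL7-, and 286 and 297 in IL7- CXCL12+. The 3 cultures did not overlap, and the order IL7+, IL7-, IL7- CXCL12+ was that of the group means of V-side peaks per 10000 (17.4, 22.1 and 23.9). In the peak measure IL7- CXCL12+ overlapped IL7-, with its replicate 2 (20.4) below both IL7- libraries (22.0 and 22.1). The sums were 214 and 275 CPM in the sorted CXCR4-/- libraries and reached 1359 and 1328 in the sorted wild-type ones. In IL7- against IL7+, 22 of the 118 V segments tested rose and 0 fell, where 5.60% of all 14862 genes tested rose and 6.23% fell, 11.8% together (edgeR, adjusted p under 0.05 over all genes). At an unadjusted p under 0.05, 52 were higher and 0 lower, and DESeq2 called 29 higher and 0 lower. The median log2 change was 0.90 over the V segments and 0.05 over all genes. The 22 became 9 without IL7- replicate 1, 9 without IL7+ replicate 1, 10 without IL7- replicate 2, 12 without IL7+ replicate 2 and 35 with only these groups fitted.

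In IL7- CXCL12+ against IL7-, 83 of 118 V segments rose and 1 fell, where 17.3% and 13.2% of all genes did (30.6% together). The one that fell was Igkv9-124, by 0.80 on the log2 scale (SE 0.19, edgeR adjusted p = 0.0070), at 4.66 and 4.74 CPM in IL7- and 2.73 and 2.64 in IL7- CXCL12+; it was not called without IL7- CXCL12+ replicate 1. The median log2 change was 2.04 against 0.09 for all genes. In IL7- CXCL12+ against IL7+, 99 rose and 0 fell (1 lower at an unadjusted p under 0.05, and 1 by DESeq2), where 29.8% and 21.5% of all genes did (51.3% called in all). The median was 3.09 against 0.12 for all genes.

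Among single V segments, Igkv1-135 had the smallest p in all 3 comparisons. It measured 1.23 and 1.38 CPM in IL7+, 4.22 and 4.13 in IL7-, and 25.0 and 25.9 in IL7- CXCL12+, with no overlap between groups. Its log2 change was 1.67 (SE 0.13, edgeR adjusted p = 1.4e-05) on IL-7 withdrawal and 2.61 (SE 0.12, adjusted p = 5.3e-08) with CXCL12. Igkv16-104 was also among the 4 with the smallest p in each comparison, at 0.51 and 0.45 CPM in IL7+, 1.32 and 1.17 in IL7-, and 5.32 and 5.83 in IL7- CXCL12+. The others named by that rule were Igkv4-50, Igkv9-124, Igkv8-27, Igkv8-30 and Igkv19-93, with log2 changes of 1.18 to 3.97.

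The V segments were also taken in RefSeq order along the chromosome, in 4 consecutive sets of 29 or 30 tested segments from the low end to the J-proximal end. On IL-7 withdrawal 9, 4, 5 and 4 rose, with median log2 changes of 1.08, 1.11, 0.79 and 0.70. With CXCL12 added, 20, 17, 23 and 23 rose, with medians of 2.16, 1.82, 2.01 and 2.18. V segments that rose were thus found in all 4 sets, as the 17 regions of the IL-7 comparison were spread along the V side. A match of single regions to single V segments was not made, since the RefSeq build differs from that of the peaks.

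All 5 J segments were higher in IL7- CXCL12+ than in both other cultures. IgkJ1 measured 4.66 and 4.64 CPM in IL7+, 7.56 and 7.69 in IL7-, and 22.2 and 21.1 in IL7- CXCL12+. On IL-7 withdrawal IgkJ1 rose by 0.71 (SE 0.14, edgeR adjusted p = 0.0053) and IgkJ2 by 0.98 (SE 0.21, adjusted p = 0.0099) on the log2 scale. IgkJ3, IgkJ4 and IgkJ5 had log2 changes of 1.45, 0.72 and 0.85 with adjusted p of 0.063, 0.22 and 0.12. IgkJ1 was not called without IL7- replicate 2, nor IgkJ2 without IL7- replicate 1, IL7- replicate 2 or IL7+ replicate 2 (adjusted p 0.052 to 0.10). In IL7- CXCL12+ against IL7-, the log2 changes from IgkJ1 to IgkJ5 were 1.51, 2.00, 1.82, 1.95 and 1.97, all with an edgeR adjusted p of 0.0067 or less; IgkJ3 had 0.075 without IL7- replicate 1. Against IL7+ they were 2.22, 2.98, 3.27, 2.67 and 2.81, all called.

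**Figure D5:**
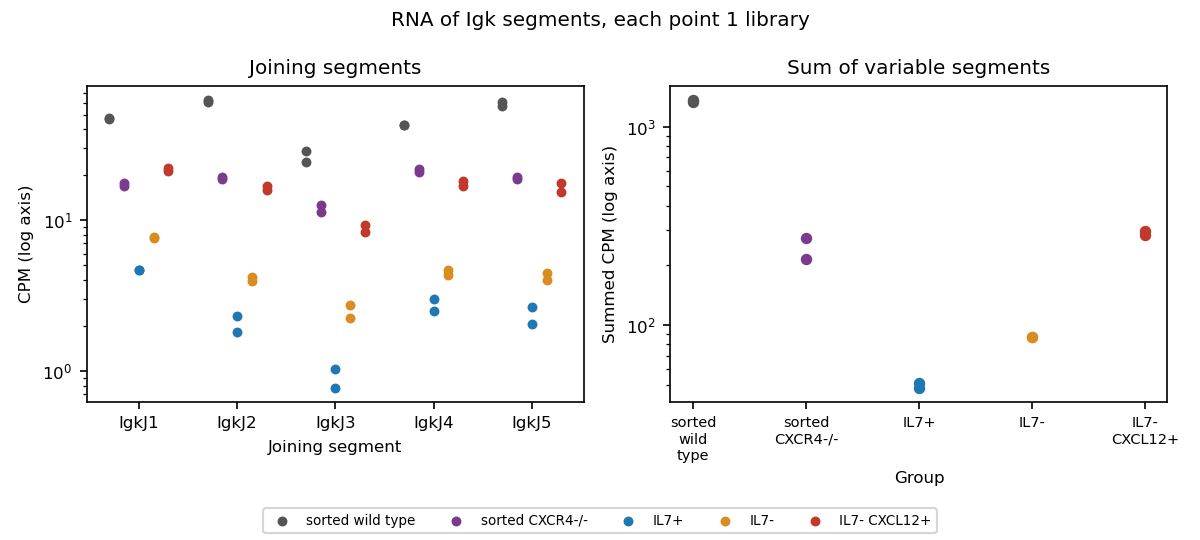
RNA of the Igk segments in the groups that have peak lists and in sorted wild-type cells. The left panel gives CPM of each J segment and the right panel the summed CPM of the V segments, both on log axes, with 1 point per library. In both panels IL7+ is lowest, IL7- next and IL7- CXCL12+ highest among the cultures, and sorted wild-type cells are highest of all.

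Of 33 listed factors that act on the locus or on its recombination, 32 were in the count table and all 32 were tested. In IL7- against IL7+, 7 rose and 0 fell (0 lower at an unadjusted p under 0.05), where 5.60% of all genes rose and 6.23% fell. They were led by Rag2, a subunit of the recombinase, with a log2 change of 1.16 (SE 0.08, edgeR adjusted p = 9.3e-06), Irf4, which binds Igk enhancers, with 0.73, and Relb, an NF-kB subunit, with 0.96. In IL7- CXCL12+ against IL7-, 10 rose and 9 fell, where 17.3% and 13.2% of all genes did. Relb rose by 1.82 (SE 0.14) and Brwd1, a chromatin reader, by 1.28 (SE 0.10), while Smc1a, a cohesin subunit, fell by 0.96 (SE 0.09). The largest fall was that of Ccnd3, by 1.30 (SE 0.12). The other factors that fell were the cohesin subunits Rad21 and Smc3, the loop factor Ctcf, Stat5a, Yy1, and Ezh2 and Suz12 of the Polycomb complex that represses chromatin. Those that rose besides Relb and Brwd1 were Rag1, Rag2, Irf4, Irf8, Spib, Id2, Foxo1 and Rela. Against IL7+, 13 rose and 10 fell, where 29.8% and 21.5% of all genes did, so that a large part of all genes was called in this comparison (51.3%).

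Among the cultures, myeloid and stromal markers rose in the same order as the Igk RNA, which the stromal markers of the sorted libraries did not follow. The 6 myeloid markers, all detected in every library of these groups, summed to 127 and 176 CPM in IL7+, 237 and 241 in IL7-, 592 and 594 in IL7- CXCL12+, 767 and 4424 in sorted CXCR4-/- and 3607 and 3665 in sorted wild-type libraries. The 5 stromal markers summed to 239 and 466 CPM in IL7+, 606 and 604 in IL7- and 1338 and 1322 in IL7- CXCL12+, and all 5 were detected there, against 6.93 to 40.3 in the sorted libraries, where 1 of the 5 was at 0 in sorted CXCR4-/- replicate 2. T-cell markers summed to 7.99 CPM at most, NK markers to 14.6 and erythroid markers to 13.3, while the 10 B-lineage markers, all detected, summed to 6765 to 11308. In bulk RNA, fewer cells of a type and less RNA per cell cannot be told apart, and the part of the myeloid and stromal markers in the Igk results was not tested. Cxcr4 itself measured 943 and 922 CPM in sorted wild-type libraries and 37.2 and 409 in the libraries labelled CXCR4-/-, so replicate 2 goes in part against its label if the counted exons lie in the deleted part, which the labels do not state. The peak lists offer no such check.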

How the data were processed

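ATAC-seq was done on 8 samples and RNA-seq on 18. The peak lists give position and a score, the -log10 of a p or q value as the authors deposited it (the lists do not name the kind), and the submitters' processing notes name BWA, Picard, MACS2, bedtools and the build mm9. The score minimum of 5 was read from the lists, whose peak numbers skip, so some peaks were removed before deposit. For RNA, the authors deposited whole-number read counts per gene; the submitters' processing notes name STAR and featureCounts. Versions are not given in the sources used here. Peaks were merged at 1 bp overlap with Python 3.11.15 (pandas 2.3.3, numpy 2.4.6), and figures drawn with matplotlib 3.10.9. Values per library were compared by exact permutation of group labels, and regions by presence in both libraries of one group and neither of the other. RNA counts were fitted with edgeR 4.0.16 (quasi-likelihood, TMM, low-count filter, R 4.3.3), leaving 14862 of 23762 genes, with DESeq2 1.42.0 as an alternative. Both tests were tested on simulated data. The title of RNA library IL7- replicate 2 and the count column of IL7- CXCL12+ replicate 2 carry a prefix (spreb) that their source labels (pre-B) do not; the source label was followed. Named regions were the 11 of the J-C end, the 6 highest by rank, the 6 widest, up to 12 held by whole groups only and up to 12 held by all libraries; named V segments and factors were the 4 and 3 with the smallest p per comparison. Other regions and segments given were picked after their values were seen. Members and lists were chosen with earlier results of these data known.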

Additional observations from a re-analysis of the deposited data

How the results depend on the processing

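Of 341 values recomputed under alternatives, 273 kept their direction and their side of the threshold or stayed within 1.5 times the reported count, 48 counts moved further, 15 passed the threshold newly, 5 no longer passed it and 0 changed direction. The causes were not tested, beyond what an alternative itself removes (peaks, libraries or genes).

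Keeping the higher-scoring part of each list, cut at its median score, gave an adjusted exact permutation p of 0.0381 for window peaks, window bases and V-side peaks, and 138 merged regions. Counts then were 0 for IL7+ against IL7-, 0 for IL7- CXCL12+ against IL7-, 6 for IL7- against IL7- CXCL12+, 2 for IL7- CXCL12+ against IL7+ and 0 in reverse, and 58, 42 and 53 for sorted cells against IL7+, IL7- and IL7- CXCL12+, with 2 for IL7- CXCL12+ against sorted cells. Lists of equal length gave 154 merged regions, 9 for IL7- against IL7+ and 1 in reverse, 3 for IL7- CXCL12+ against IL7- and 1 in reverse, and 1 for IL7+ against IL7- CXCL12+. For sorted cells they gave 37, 23 and 19 against IL7+, IL7- and IL7- CXCL12+, and 8, 10 and 12 in reverse. A J-C end with borders set further out gave an adjusted exact permutation p of 0.905, and a denominator without chromosome 10, chosen after seeing the data as was the fit of the cultures alone, 0.210.

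Leaving out 1 library at a time gave adjusted exact permutation p-values of 0.0254 to 0.333 for window peaks, window bases and V-side peaks and 0.0286 to 0.333 for the J-C end. Leaving out a library loosens the rule of both libraries against neither, so the counts of regions could hardly fall. Counts ranged over 18 to 32 for IL7- against IL7+ and 2 to 6 in reverse, 1 to 13 for IL7- CXCL12+ against IL7- and 3 to 23 in reverse, 9 to 36 for IL7- CXCL12+ against IL7+ and 2 to 8 in reverse. For sorted cells they ranged over 83 to 134 against IL7- and 4 to 8 in reverse, 81 to 131 against IL7- CXCL12+, and 3 to 8 for IL7+ against sorted cells. V segments called higher in IL7- than in IL7+ ranged over 9 to 12, and those lower in IL7- CXCL12+ than in IL7- over 0 to 1. The log2 change in IL7- against IL7+ was 0.70 to 0.72 for IgkJ1 and 0.81 to 1.17 for IgkJ2, and that of IgkJ3 in IL7- CXCL12+ against IL7- was 1.68 to 1.97.

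In IL7- against IL7+, DESeq2 called IgkJ3 (1.47) and IgkJ5 (0.86), and the fit of only the groups compared called IgkJ3 (1.42), IgkJ4 (0.68) and IgkJ5 (0.81) and 35 V segments higher. That fit called 3 V segments lower in IL7- CXCL12+ than in IL7- and 1 lower than in IL7+, where DESeq2 also called 1. Deviations of same-numbered libraries were at most weakly correlated (-0.03 to 0.07 for ATAC-seq presence and -0.01 to 0.11 for RNA). Between the cultures the ATAC-seq values were all positive, 0.070 to 0.074 for presence and 0.089 to 0.097 for log2 width. Such correlations do not see a shift shared by all regions or genes, so they cannot exclude a pairing by number. With the replicate block the adjusted exact permutation p was 0.167 for each of the 4 peak quantities, and 20, 80 and 99 V segments were called higher in the 3 RNA comparisons. Depth is known for the RNA libraries only: for peaks the read depth is not known, and scores near 5 mark the limit of the lists.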
